A study of Mus musculus with 3 samples.

Results

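The genes examined here were 9 members of the Bcl2 family, which sets whether a cell survives or dies through its mitochondria, measured in leukocytes sorted from 4T1 mammary tumors. They were chosen by symbol, and they are 9 of the 32285 genes of the series: the survival genes Bcl2, Bcl2a1a, Bcl2a1b, Bcl2a1d, Mcl1 and Bcl2l1, and the death genes Bcl2l11, Bax and Pmaip1. Live CD45+ cells came from tumors that grew from 200000 4T1-luc cells, a BALB/c mammary carcinoma line carrying luciferase, placed with matrigel in the mammary fat pad of female BALB/c mice aged 6 to 8 weeks. There were 3 groups. The vehicle group (Veh) carried p38a wild type tumors and received DPBS. The p38i group carried the same tumors and received LY2228820 (ralimetinib), an inhibitor of the p38 kinases, at 30 mg/kg by daily gavage for 10 days from day 4. The p38KO group carried tumors of 1 clone, p38a-KO-H9, in which Mapk14, the gene of p38α, was inactivated by CRISPR-Cas9, and the labels give no treatment for it. Tumors of 3 mice were pooled per group on day 14 and gave 1 library per group. The deletion was in the tumor cells, and the sorted host leukocytes carried an intact Mapk14, so its level here (33.7 CPM in Veh, 42.1 CPM in p38i and 39.1 CPM in p38KO) does not check that label.

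In this family, Bcl2, the Bcl2a1 proteins (A1), Mcl1 and the Bcl2l1 product Bcl-xL hold the mitochondrial outer membrane intact. Bax perforates that membrane, and the BH3-only proteins Bim (from Bcl2l11) and Noxa (from Pmaip1) bind the survival proteins and release that brake, Noxa mainly by binding Mcl1 and A1. Lymphocytes are known to lean on Bcl2, neutrophils on Mcl1 and A1. Mouse A1 is encoded by several near-identical gene copies.

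With 1 library per group no test between groups was possible, and no p-value is given. Counts were summed over the cells of each type in each library and are given as CPM, the count per 1000000 counts of that sum, with exact Poisson 95% intervals. Ratios to Veh are given on the log2 scale with exact binomial 95% intervals. All intervals cover counting error only, not differences between cells, mice, tumors or library preparations. They treat each count as independent, although some members had many of their counts in a few cells. With 1 library per group the library and the group cannot be told apart. A ratio is called past the limit when it is at least 0.5 on the log2 scale (1.41-fold) in either direction with at least 20 counts over both libraries. Cell types were gates on raw counts: Csf3r and Cxcr2 for neutrophils, Ly6c2 and Fn1 for monocytes, C1qa for macrophages, Cd3e for T cells, Ncr1 for NK cells and Flt3 for dendritic cells (DC).

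The Veh, p38i and p38KO libraries held 3820, 4793 and 3859 kept cells with median depths of 3162, 3038 and 3317 counts. The cell filter kept 83.3%, 75.6% and 74.0% of the barcodes. The median mitochondrial share of kept cells was 0.67%, 0.97% and 2.10%. The gates held 1281 to 1995 neutrophils, 260 to 697 monocytes, 201 to 636 macrophages, 406 to 590 T cells, 101 to 107 NK cells and 40 to 71 DC per library. Marker lists that were not used for gating checked the gates. Neutrophil markers summed to at least 148637 CPM in the neutrophil gates against at most 10086 CPM elsewhere, T markers to at least 5129 CPM against at most 638 CPM, NK markers to at least 5167 CPM against at most 558 CPM, and macrophage markers to at least 17370 CPM against at most 4319 CPM. The monocyte gates (4541 to 5509 CPM) were less apart from the DC gates (at most 3093 CPM), and the DC list did not set the DC gates (5540 to 6911 CPM) apart from the macrophages (4039 to 5540 CPM). Mast cell markers stood apart in p38KO, at 1101 CPM in the NK gate, 167 CPM in the T gate and 128 CPM in the neutrophil gate, against at most 37.1 CPM in any gate of the other libraries. Cells that passed for more than 1 of the neutrophil, macrophage, T, NK and DC lineages made up 8.40% of the p38KO library, 3.53% of Veh and 2.77% of p38i. The monocyte genes were not part of that count. Any pair of libraries shared 5 to 9 cell barcodes.

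How the counts of the 3 A1 genes can be read depends on how alike the copies are. In the GENCODE annotation of GRCm38, Bcl2a1a lies at chr9:88956900-88962419 on the plus strand, Bcl2a1b at chr9:89199209-89207827 on the plus strand and Bcl2a1d at chr9:88723285-88731914 on the minus strand. Their coding sequences are 519 bases each, and 12 of these positions differ among the 3 genes. Bcl2a1a and Bcl2a1b differ at 11 positions (97.9% identical), Bcl2a1a and Bcl2a1d at 7 (98.7%) and Bcl2a1b and Bcl2a1d at 6 (98.8%). The stretch from coding base 1 to 90, counted from the start codon, holds 6 of the 12. This stretch lies outside the last 400 bases of the transcripts, which are treated below. It is given to show where the coding sequences differ, 5′ to 3′, with the differing positions in capitals.
Bcl2a1a: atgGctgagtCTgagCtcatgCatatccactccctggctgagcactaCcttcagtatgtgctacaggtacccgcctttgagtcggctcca
Bcl2a1b: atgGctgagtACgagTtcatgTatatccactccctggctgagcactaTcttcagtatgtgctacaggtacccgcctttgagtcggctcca
Bcl2a1d: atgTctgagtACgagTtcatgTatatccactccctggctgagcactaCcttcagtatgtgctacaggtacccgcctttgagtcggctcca
The assay reads the ends of transcripts. In the last 400 bases of the annotated transcripts, 73.0% of the 90-base words of Bcl2a1a occur in neither other gene, against 65.9% for Bcl2a1b and 39.2% for Bcl2a1d. A read from a shared word cannot be assigned to 1 gene, so the values of the single rows are uncertain, those of Bcl2a1d most, and the sum of the 3 rows (the A1 sum) is given beside them.

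The start regions of the A1 genes are also close copies. The RefSeq windows from 250 bases before to 50 bases after each start (GRCm38.p6) are given because Bcl2a1a and Bcl2a1b were both higher in p38KO neutrophils. The windows are chr9:88956670-88956969 on the plus strand, chr9:89199023-89199322 on the plus strand and chr9:88731801-88732100 on the minus strand, and capitals mark GAGGAAGT, a word of the kind bound by the myeloid factor PU.1.
Bcl2a1a: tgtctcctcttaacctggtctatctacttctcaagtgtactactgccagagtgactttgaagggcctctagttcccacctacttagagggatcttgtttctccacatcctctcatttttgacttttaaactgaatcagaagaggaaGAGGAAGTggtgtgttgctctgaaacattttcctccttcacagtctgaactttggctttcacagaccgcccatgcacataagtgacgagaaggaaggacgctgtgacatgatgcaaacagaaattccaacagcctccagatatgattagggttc
Bcl2a1b: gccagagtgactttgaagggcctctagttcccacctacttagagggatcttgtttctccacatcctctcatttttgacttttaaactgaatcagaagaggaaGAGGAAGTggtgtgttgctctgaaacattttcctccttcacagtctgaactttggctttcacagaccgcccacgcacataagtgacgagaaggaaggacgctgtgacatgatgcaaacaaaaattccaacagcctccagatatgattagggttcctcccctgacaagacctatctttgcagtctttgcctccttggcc
Bcl2a1d: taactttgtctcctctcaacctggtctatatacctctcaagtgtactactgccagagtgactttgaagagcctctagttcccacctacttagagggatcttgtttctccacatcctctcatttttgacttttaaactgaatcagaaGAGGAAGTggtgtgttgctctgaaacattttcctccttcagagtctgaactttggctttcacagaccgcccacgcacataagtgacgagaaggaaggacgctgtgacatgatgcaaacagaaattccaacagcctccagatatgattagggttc
The word was chosen after the windows were seen. On either strand (GAGGAAGT or ACTTCCTC) it occurs in 3.20% of the 32851 windows, in all 3 A1 windows, and in no window of the other 5 members that matched, which were 8 of 9 in all. The windows are close copies, so the 3 matches are not independent. Bcl2a1d holds the word too. Its row is the least certain of the 3, with 27 counts in Veh and 10 in p38KO neutrophils. The interval of its ratio held 0, so nothing about the word is read from it. The match is a description of these letters, not of binding, and its part in the A1 values was not tested.

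Bcl2 separated the lymphoid from the myeloid gates in all 3 libraries, as the plot of levels by gate shows. This founding survival gene (chr1:106538178-106714274, minus strand) was highest in NK cells, at 794 CPM in Veh, 627 CPM in p38i and 558 CPM in p38KO. The T gate followed at 635, 454 and 459 CPM. The 4 myeloid gates stood between 5.03 and 24.7 CPM, and in each library neutrophils had the lowest Bcl2 level, at 5.03, 5.18 and 5.78 CPM. NK and T cells differed beyond counting error in each library. Among the myeloid gates, neighbours in the order did not differ beyond counting error in p38i, nor did macrophages, DC and monocytes in p38KO or DC and macrophages in Veh. Once every cell was thinned to 1500 counts, 49.3%, 42.9% and 42.6% of T cells had a Bcl2 count, against 0.493%, 0.551% and 0.703% of neutrophils (74.1%, 65.1% and 62.3% against 1.17%, 1.45% and 0.859% without thinning, at median depths of 4902, 3926 and 4612 counts in T cells and 2516, 2268 and 2174 in neutrophils).

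**Figure D1:**
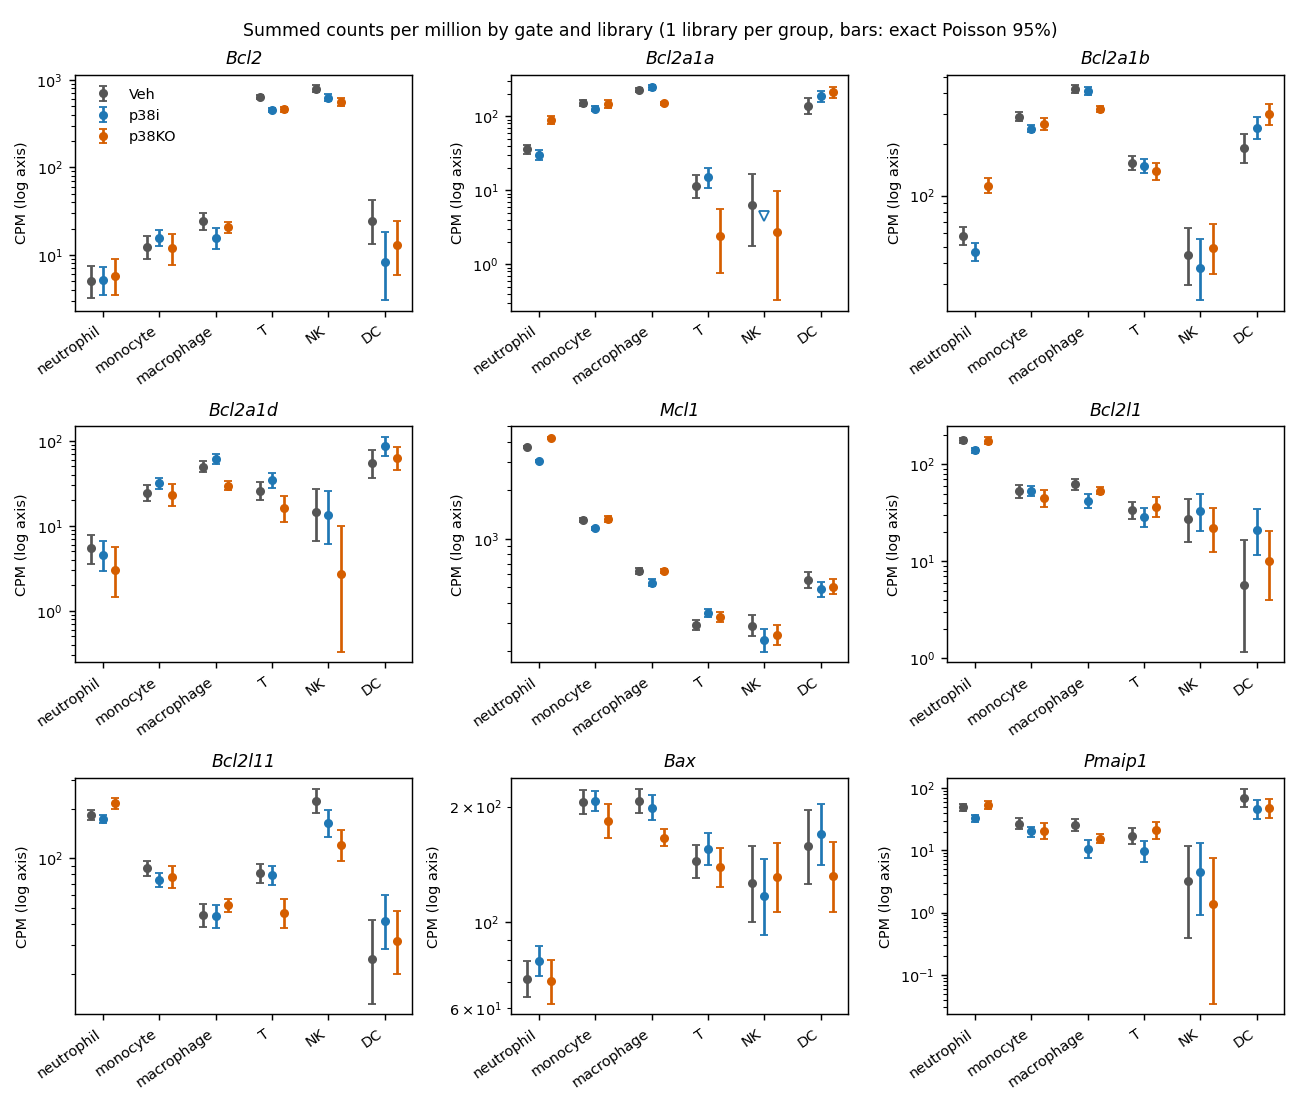
Summed level of each member (CPM, log axis) in the 6 gates of the Veh, p38i and p38KO libraries. Points are 1 library each with exact Poisson 95% intervals, and an open triangle marks 0 counts, drawn at the level of 3 counts. Bcl2 stood above 450 CPM in T and NK gates and below 25 CPM in the others, Mcl1 was highest in neutrophils at 3053 to 4221 CPM, and the neutrophil points of Bcl2a1a and Bcl2a1b were higher in p38KO.

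Mcl1, a short-lived survival protein that neutrophils need (chr3:95658788-95663176, plus strand), ran the other way. Its level was 3721 CPM in Veh neutrophils, 3053 CPM in p38i and 4221 CPM in p38KO, and 99.3% to 99.6% of neutrophils had at least 1 count of it. The order was neutrophil, monocyte, macrophage, DC, then T and NK cells in each library, and neighbours differed beyond counting error except macrophages and DC in p38i and T and NK cells in Veh. The monocyte gate had 1311, 1161 and 1328 CPM. S100a8 and S100a9, neutrophil transcripts also counted in other gates, would carry 4.11% to 15.0% of the Mcl1 counts of monocytes with them and 6.01% to 21.0% of those of macrophages, if all of them came from neutrophil RNA.

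Bcl2l1, which encodes Bcl-xL (chr2:152780668-152831728, minus strand), was also highest in neutrophils, at 177, 139 and 176 CPM in Veh, p38i and p38KO. The other gates lay between 5.70 and 62.3 CPM, and the DC gate rested on 3, 15 and 7 counts. The A1 sum was highest in macrophages in Veh (699 CPM) and p38i (719 CPM). In p38KO the DC gate was highest at 574 CPM, with macrophages at 502 CPM. NK cells had the lowest A1 sum, at 65.6, 51.1 and 54.7 CPM.

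Among the death genes, Bcl2l11 (chr2:128126038-128162547, plus strand) was highest in NK cells and neutrophils. Veh NK cells had 224 CPM and Veh neutrophils 184 CPM, the p38i values of 164 and 174 CPM did not differ beyond counting error, and p38KO had 120 and 216 CPM. Bax (chr7:45461697-45466898, minus strand) was more even, with 117 to 207 CPM in 5 gates and 70.3 to 79.4 CPM in neutrophils, the lowest in each library. Pmaip1, on chromosome 18, was highest in DC and neutrophils, at 45.9 to 70.3 CPM and 32.7 to 54.5 CPM, and rested on 1 to 3 counts in NK cells.

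The p38KO library was then compared with Veh. Over the 54 pairs of member and gate, 50 had enough counts, of which 4 were past the limit upward (8.00%) and 11 downward (22.0%). Of all genes tested in these gates, 15.5% were past the limit upward and 8.42% downward. The upward pairs were all Bcl2a1a or Bcl2a1b, in neutrophils and DC, and several downward pairs were Bcl2a1a or Bcl2a1d. These close copies were counted as separate members, so the pairs are not independent. Among the downward pairs, the intervals of Bcl2a1d in neutrophils and of Bcl2 and Pmaip1 in DC held 0. The median log2 ratio of the members was -0.14 over the 50 pairs, while the median over all genes lay between -0.02 and 0.11 in the 6 gates (-0.05 to 0.11 for p38i).

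Neutrophils of the p38KO library carried more A1 transcript than those of the other libraries. Bcl2a1a, which encodes an A1 protein, had 35.6 CPM in Veh, 30.1 CPM in p38i and 88.6 CPM in p38KO neutrophils. Bcl2a1b, its close copy, had 57.9, 46.4 and 114 CPM. The A1 sum had 99.0, 81.0 and 206 CPM, and the p38KO library was the highest. The p38i interval (74.0 to 88.6) lay below that of Veh (90.4 to 108). The log2 ratio of p38i to Veh was -0.29 (-0.47 to -0.10), within the limit. The log2 ratio of p38KO to Veh was 1.06 for the sum (0.89 to 1.23), 1.32 for Bcl2a1a (1.04 to 1.59) and 0.98 for Bcl2a1b (0.75 to 1.21). Bcl2a1d, with 27, 27 and 10 counts, had 5.43, 4.51 and 3.04 CPM and a ratio of -0.84 whose interval ran from -2.05 to 0.26 and which was within the limit under 5 of its alternatives. In this gate 2 of the 9 members were past the limit upward and 1 downward, against 15.6% and 7.54% of all genes.

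More neutrophils had an A1 count in p38KO. After thinning to 1500 counts per cell the share was 8.94% in Veh (145 of 1622 cells), 7.72% in p38i (154 of 1995) and 16.8% in p38KO (215 of 1281), and without thinning it was 13.9%, 11.7% and 22.3%. NK cells, the gate lowest in A1, had thinned shares of 7.77%, 3.74% and 3.96% at median depths of 4213, 4584 and 5416 counts. The 5 cells with most A1 counts held 17.3% of the sum in Veh and 11.5% in p38KO. Mast cell markers were also higher in p38KO neutrophils, and without cells that had 2 or more mast marker counts the log2 ratio of the sum was 1.07. Macrophage markers summed to 264, 389 and 459 CPM in the neutrophil gate, where C1qc had 14.1, 7.35 and 50.2 CPM, C1qb had 15.5, 7.85 and 39.0 CPM and none of the 6 was at 0. Their part in the A1 values was not tested.

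The p38KO neutrophil difference was present in every neutrophil subset examined, as the plot of the A1 sum by subset shows. Among cells with a count of Cxcr2, the chemokine receptor of circulating mature neutrophils, the A1 sum had 91.8, 80.7 and 193 CPM in Veh, p38i and p38KO. Among cells with Cxcr2 at 0 it had 138, 83.2 and 297 CPM. Neutrophils with at least 2 counts of the interferon-induced genes Ifit1, Ifit3 and Rsad2 made up 29.7% of the gate in Veh, 15.3% in p38i and 39.8% in p38KO. They had a higher A1 sum than the rest in each library, by 1.08, 0.85 and 0.69 on the log2 scale. Bcl2l11 was also higher in them, by 0.42, 0.42 and 0.48, and Mcl1 by 0.20, 0.12 and 0.18, while the Pmaip1 intervals held 0. No median over all genes was taken between these subsets, so a shift shared by most genes is not set apart. Within the cells with at least 2 such counts the log2 ratio of the A1 sum of p38KO to Veh was 0.78 (0.55 to 1.02). Below 2 such counts it was 1.17 (0.92 to 1.42).

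**Figure D2:**
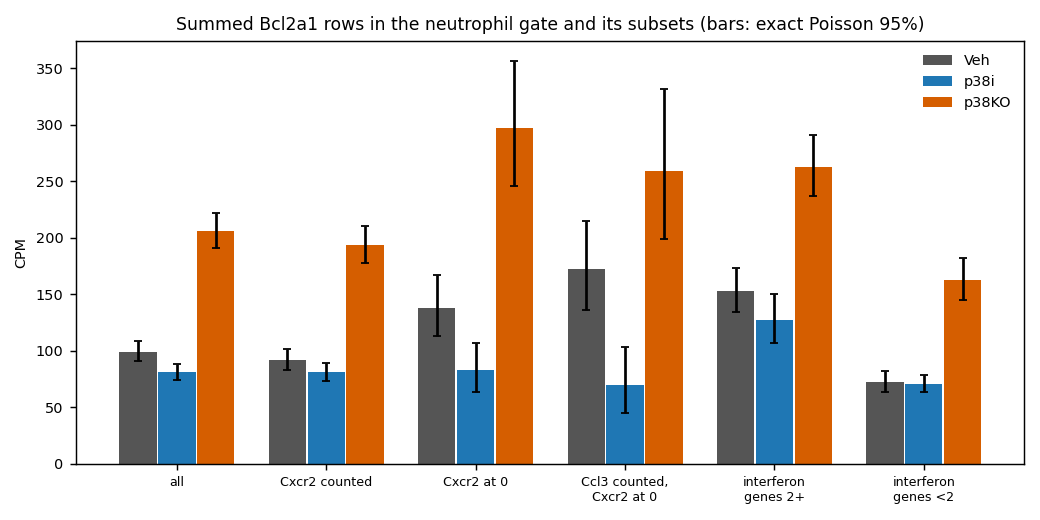
Sum of the 3 A1 genes (CPM) in the neutrophil gate and in its subsets by counts of Cxcr2, Ccl3 and interferon-induced genes. Bars are 1 library each with exact Poisson 95% intervals, and p38KO was the highest library in all 6 sets, at 162 to 297 CPM.

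Cells with a count of Ccl3, an inflammatory chemokine, and Cxcr2 at 0 formed 10.2%, 6.82% and 8.20% of the neutrophil gates and had higher levels of several members, death and survival genes alike, than Cxcr2-counted cells. Bax was higher in them by 1.63, 0.92 and 1.76 on the log2 scale in Veh, p38i and p38KO. Pmaip1 was higher by 0.94, 0.95 and 1.21, and Bcl2l11 by 0.84, 0.74 and 0.64. Bcl2l1 was higher by 0.81 in Veh and 0.78 in p38KO, while in p38i the ratio was 0.24 with an interval from -0.18 to 0.64. Mcl1 was higher by 0.30, 0.54 and 0.23. The A1 sum was higher by 0.91 in Veh and 0.42 in p38KO, and in p38i the ratio was -0.21 with an interval from -0.87 to 0.38. The A1 sum in these cells was 172, 69.5 and 259 CPM, so that p38i stood below Veh by 1.31 on the log2 scale (-2.03 to -0.63) on 24 and 78 counts. No median over all genes was taken between these 2 subsets. A shift shared by most genes is therefore not set apart from the differences between them.

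Macrophages of the p38KO library had less A1 transcript than those of Veh. The macrophage gate held 5.29% of kept cells in Veh, 4.19% in p38i and 16.5% in p38KO. Macrophage markers summed to 17370.4, 20732.5 and 28296.6 CPM in it. The part of these differences in the A1 values was not tested. Mast cell markers summed to 0.57, 0 and 102 CPM in the same gate. The A1 sum had 699 CPM in Veh, 719 CPM in p38i and 502 CPM in p38KO, and the p38KO interval (488 to 517) lay below both others. The log2 ratio of the sum was -0.48 (-0.55 to -0.41), just inside the limit. Bcl2a1a (226, 245 and 149 CPM) and Bcl2a1d (49.6, 61.0 and 29.7 CPM) were past it, at -0.60 and -0.74, though Bcl2a1a was at -0.42 when each cell weighed the same, and Bcl2a1b (424, 413 and 323 CPM) was within it at -0.39. The ratio of the sum was -0.50 among macrophages with a count of the proliferation genes Mki67 or Top2a and -0.46 among the others. Bax, with 207, 199 and 166 CPM, stayed within the limit at -0.32. With Pmaip1, treated below, 3 of 9 members were past the limit downward in this gate and none upward, against 5.33% and 15.5% of all genes.

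In lymphocytes of p38KO, Bcl2l11 was past the limit downward in both the T and the NK gate. T cells had 81.1 CPM of it in Veh, 79.1 CPM in p38i and 46.6 CPM in p38KO, a log2 ratio of -0.80 for p38KO (-1.15 to -0.45). NK cells had 224, 164 and 120 CPM, a ratio of -0.90 for p38KO (-1.30 to -0.50), with p38i in between at -0.45. In both gates p38KO was lowest. The p38KO NK gate also held mast cell markers at 1101 CPM, against 1.60 CPM in Veh. Its NK markers summed to 5167 CPM, against 8695 CPM in Veh. The Bcl2l11 ratio of NK cells kept its direction under every alternative run. CD8 T cells (Cd8a or Cd8b1 counted, Cd4 and Foxp3 at 0) had 103, 92.8 and 35.1 CPM, a ratio of -1.55 (-2.26 to -0.91) on 168 and 22 counts. It was also lower among CD8 T cells with a count of Pdcd1, the gene of the receptor PD-1 (119, 99.9 and 54.5 CPM), and among those without (74.9, 80.8 and 24.6 CPM), on 12 and 10 counts in p38KO. CD4 T cells had 61.6, 40.8 and 57.6 CPM, with a ratio of -0.10 for p38KO (-0.87 to 0.70). T cells with a Foxp3 count had 25.3, 70.2 and 43.5 CPM on 7, 27 and 15 counts, with a ratio of 0.78 for p38KO whose interval held 0 (-0.60 to 2.32). CD8 T cells made up 50.1% of the T gate in Veh, 36.9% in p38i and 26.8% in p38KO.

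Bcl2 itself was lower than in Veh in the T and NK gates of both other libraries, close to the limit. In T cells the log2 ratio was -0.49 for p38i (-0.59 to -0.38) and -0.47 for p38KO (-0.58 to -0.35), and scaling by the median ratio of well-counted genes took both past the limit, to -0.57 for each. In NK cells it was -0.34 for p38i (-0.53 to -0.15) and -0.51 for p38KO (-0.70 to -0.32), and the latter was within the limit at -0.43 without mast marker cells and at -0.29 when each cell weighed the same. In CD8 T cells the values were 755 CPM in Veh, 547 CPM in p38i and 620 CPM in p38KO. Those of CD4 T cells are given below. In p38KO each of these subsets stood nearer to its Veh level than the whole T gate did. The T gate pools subsets whose shares differed. CD8 T cells were 50.1%, 36.9% and 26.8% of it in Veh, p38i and p38KO, and Foxp3-counted cells 11.6%, 16.3% and 17.0%. Foxp3-counted cells, treated below, had their highest Bcl2 level in p38KO. The part of these shares in the T gate ratios was not tested. The p38i and p38KO comparisons share the Veh library.

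**Figure D3:**
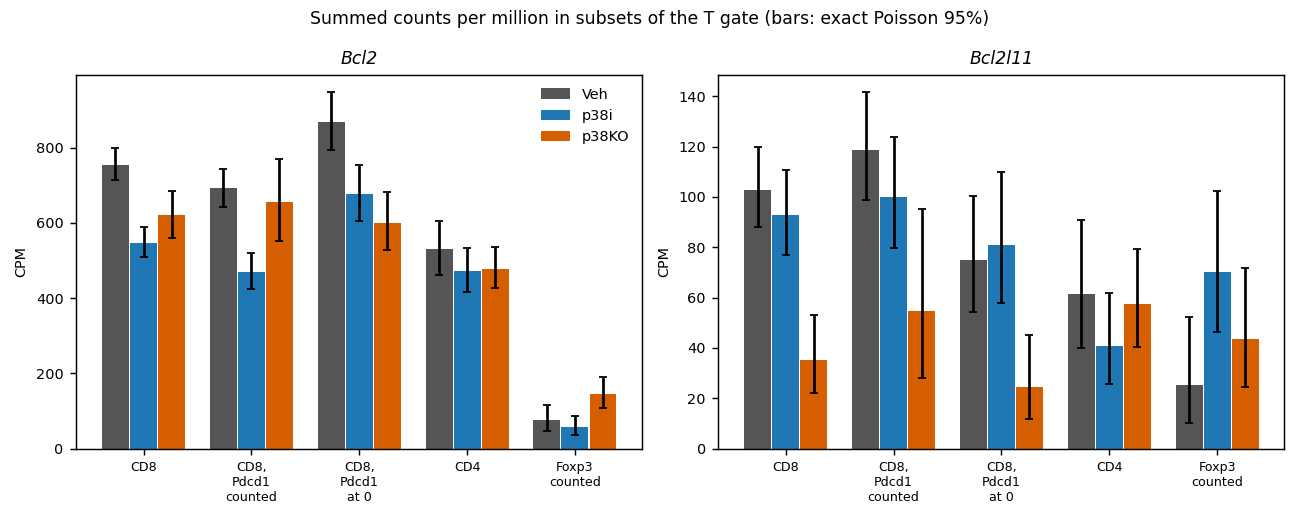
Bcl2 and Bcl2l11 (CPM) in subsets of the T gate. Bars are 1 library each with exact Poisson 95% intervals. Bcl2 was lowest in Foxp3-counted cells in each library, and Bcl2l11 was lowest in p38KO in CD8 T cells, at 35.1 CPM against 103 CPM in Veh.

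T cells with a count of Foxp3, the transcription factor of regulatory T cells, stood apart from other CD4 T cells in Bcl2. They had 76.0, 57.2 and 145 CPM in Veh, p38i and p38KO against 530, 472 and 478 CPM, that is lower by 2.80, 3.04 and 1.72 on the log2 scale. The p38KO value was the highest of the 3, with a ratio to Veh of 0.93 (0.17 to 1.74) on 50 and 21 counts. Pmaip1 had 22 counts in these cells in p38KO (63.8 CPM) and 4 and 3 in Veh and p38i. In the whole p38KO T gate 1 cell held 7 of the 44 Pmaip1 counts, and 5 cells held 34.1% of them. In the Veh and p38i T gates no cell held more than 2.

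Pdcd1-counted CD8 T cells had more A1 than those without Pdcd1 in each library. The A1 sum had 242 against 116 CPM in Veh, 289 against 113 CPM in p38i and 186 against 88.6 CPM in p38KO, log2 ratios of 1.07, 1.35 and 1.07 whose intervals overlapped. Bcl2a1b carried most of these counts. In the whole T gate Bcl2a1a was past the limit downward in p38KO, at 11.3, 15.1 and 2.38 CPM and a ratio of -2.25 (-3.97 to -0.88), but its 32, 43 and 5 counts lay in 10, 14 and 4 cells, and 5 cells held 81.2% of the Veh counts. Bcl2a1d had 25.8, 34.3 and 16.2 CPM in T cells and a ratio of -0.68 (-1.31 to -0.07). Bcl2a1b, with most of the A1 counts of T cells, had 155, 149 and 139 CPM. It was within the limit at -0.16 for p38KO (-0.38 to 0.06) and -0.06 for p38i (-0.25 to 0.14). The A1 sum of T cells was also within the limit in p38KO, at -0.29 (-0.49 to -0.09). In p38KO 3 of 9 members were past the limit downward in T cells (6.88% of all genes) and 2 of the 6 with enough counts in NK cells (16.5%), and none was past it upward (15.4% and 14.2%).

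In the DC gate the A1 rows of p38KO were past the limit upward, and this rested on few cells. The A1 sum had 384, 522 and 574 CPM in Veh, p38i and p38KO, a log2 ratio of 0.58 for p38KO (0.34 to 0.83). Cells with at least 2 counts of Ccr7 and Fscn1, genes of mature migratory DC, numbered 1, 8 and 6, and they held 2426 CPM of A1 in p38KO and 1127 CPM in p38i. Without them the sum was 386 CPM in Veh, 457 CPM in p38i and 390 CPM in p38KO, and the ratio for p38KO was 0.02. In this gate 2 of 8 members with enough counts were past the limit upward, Bcl2a1a (0.61) and Bcl2a1b (0.66), and 2 downward, Bcl2 (-0.93) on 13 and 9 counts in Veh and p38KO and Pmaip1 (-0.57), against 18% and 12.8% of all genes. The last 2 changed direction under some of the alternatives.

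In monocytes none of 9 members was past the limit in either comparison (14.8% of all genes upward and 5.59% downward for p38KO, 10.3% and 5.71% for p38i). The A1 sum had 466, 407 and 434 CPM. Within the gate some members differed with Arg1, the arginase gene of suppressive myeloid cells. Arg1-counted monocytes had an A1 sum of 753, 671 and 606 CPM against 256, 229 and 243 CPM in the others, log2 ratios of 1.56, 1.55 and 1.32. Bcl2l1 was higher in them by 1.54, 1.20 and 1.34, and Bcl2l11 differed by -0.36, -0.39 and -0.02. No median over all genes was taken between these subsets, so a shift shared by most genes is not set apart.

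The p38i library was compared with Veh in the same way. Of 49 pairs with enough counts, 2 were past the limit upward (4.08%) and 6 downward (12.2%), while 12.1% of all genes tested were past it upward and 8.27% downward. The median over the members was -0.11. The 2 upward pairs were both in the DC gate, Bcl2a1d (0.65, -0.01 to 1.34) and Bcl2l11 (0.76, -0.22 to 1.82), with intervals that held 0, and 17.8% of all genes were past the limit upward there and 11.3% downward. None of the 6 NK members with enough counts was past it (11.6% of all genes upward and 16% downward).

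**Figure D4:**
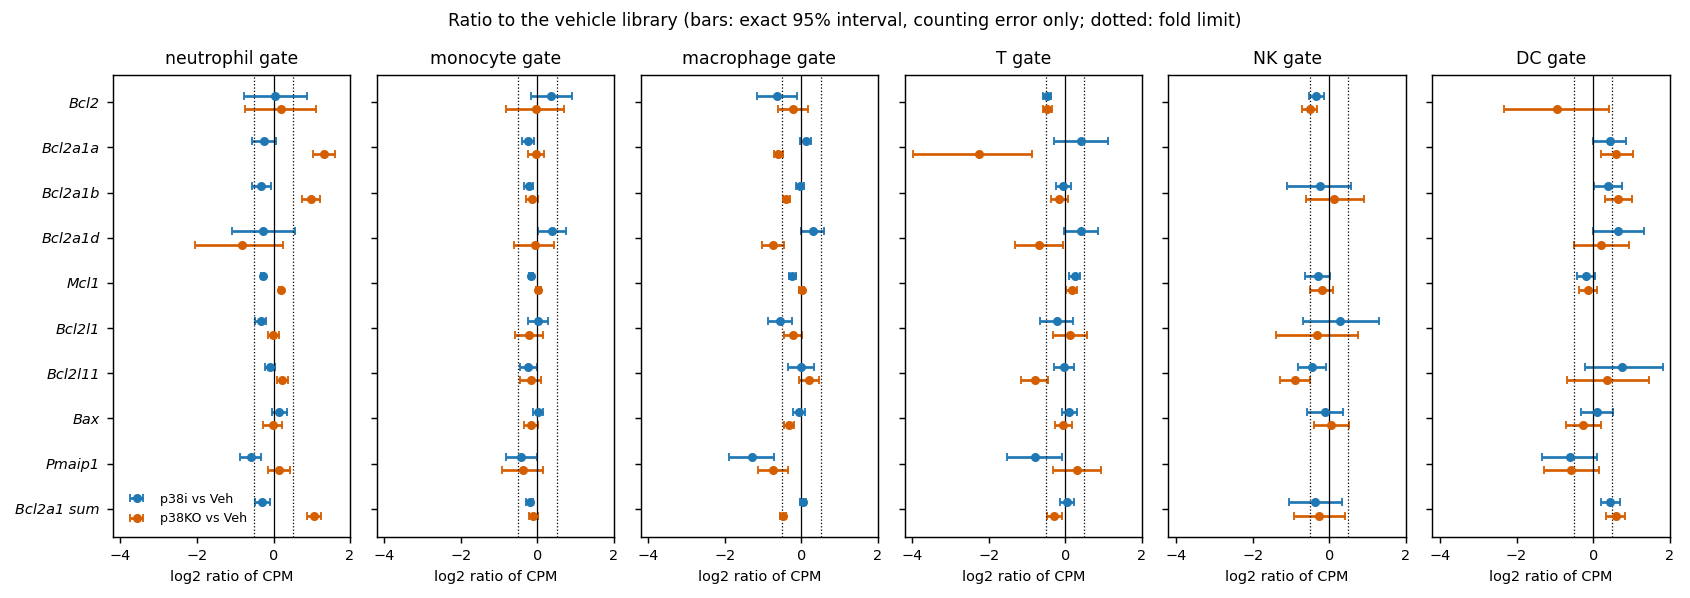
Log2 ratio of CPM to the Veh library for each member and for the A1 sum in the 6 gates, for p38i and p38KO. Points are 1 pair of libraries with at least 20 counts, bars are exact 95% intervals for counting error, and dotted lines mark the limit of 0.5. Pmaip1 lay left of the limit for p38i in 4 gates, in DC with an interval that held 0. The A1 sum of p38KO lay right of the limit in neutrophils at 1.06.

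Pmaip1, the gene of Noxa, was past the limit downward in 4 gates of p38i, in DC with an interval that held 0. Neutrophils had 49.5 CPM in Veh, 32.7 CPM in p38i and 54.5 CPM in p38KO, with a log2 ratio of -0.60 for p38i (-0.87 to -0.32) that was within the limit at -0.38 with gates read after thinning and at -0.47 without the cell filter. Macrophages had 25.8, 10.6 and 15.4 CPM, with ratios of -1.28 for p38i (-1.88 to -0.71) and -0.74 for p38KO (-1.14 to -0.35). T cells had 17.0, 9.80 and 20.9 CPM, with a ratio of -0.79 for p38i (-1.52 to -0.09). Monocytes had 26.9, 20.1 and 20.9 CPM and stayed within the limit at -0.42 and -0.37. In neutrophils, macrophages and T cells p38i was thus the lowest library, whereas p38KO stood near Veh in neutrophils (0.14) and T cells (0.30). In the DC gate the ratio was -0.61 for p38i (-1.34 to 0.10), on 33 and 37 counts. It changed sign with gate minimums 1 count higher and with gates read after thinning. Of 9 members 1 was past the limit downward in neutrophils and 1 in T cells (6.16% and 5.26% of all genes), and none upward (16.2% and 12.2%).

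Macrophages of the p38i library had 3 members past the limit downward and none upward, against 8.64% and 7.09% of all genes. Besides Pmaip1 these were Bcl2l1, with 62.3, 42.4 and 53.8 CPM and a ratio of -0.56 (-0.87 to -0.25) that was within the limit under 4 alternatives (at -0.27 with a gate minimum of 1), and Bcl2, with 24.1, 15.6 and 20.6 CPM and a ratio of -0.63 (-1.15 to -0.11). Mcl1, the survival protein that Noxa opposes, had 628, 533 and 630 CPM there and stayed within the limit at -0.24. In neutrophils its ratio was -0.29 for p38i (-0.31 to -0.26) and 0.18 for p38KO (0.15 to 0.21), differences beyond counting error that were within the limit.

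Early response and stress genes were lower than in Veh in p38i and, in some gates, in p38KO. Of 12 such genes, which include Fos, Jun, Egr1, Dusp1 and Hspa1a and also respond to tissue dissociation (done in the cold here), 6 were past the limit downward in p38i neutrophils, 9 in monocytes, 7 in macrophages and 6 in T cells, with 0, 0, 1 and 2 upward and medians of -0.45, -0.75, -0.77 and -0.53. Of all genes, 6.16%, 5.71%, 8.64% and 5.26% were past it downward in those gates, and 16.2%, 10.3%, 7.09% and 12.2% upward. In p38KO 3, 6, 5 and 4 were past it downward, with medians of 0.06, -0.46, -0.23 and -0.23, against 7.54%, 5.59%, 5.33% and 6.88% of all genes. Upward there were 1, 0, 1 and 1, against 15.6%, 14.8%, 15.5% and 15.4%. In the DC gate 10 were past it downward in p38i and 8 in p38KO, against 11.3% and 12.8%. None was past it upward there, against 17.8% and 18%. In NK cells 7 of 10 with enough counts were past it downward in p38i and 5 of 11 in p38KO, against 16% and 16.5%. The NK medians were -1.23 and -0.23, and 1 gene was upward in each, against 11.6% and 14.2%. Dusp1, a phosphatase that acts on p38 itself, had 2294 CPM in Veh neutrophils, 721 CPM in p38i and 1499 CPM in p38KO. Their part in the Pmaip1 and Mcl1 values was not tested.

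Other genes of the same pathway were taken from lists. Of 16 further Bcl2 family genes, 8 had enough counts in neutrophils for p38i and 7 for p38KO. Neutrophils, monocytes, macrophages, T cells and DC each had 5 to 10 genes with enough counts. None of these genes was past the limit downward in either comparison, against 5.26% to 12.8% of all genes. In NK cells 1 of 8 was past it downward in p38i and 1 of 7 in p38KO, against 16% and 16.5% of all genes. In p38KO monocytes 5 of 10 were past it upward, against 14.8% of all genes, among them Bmf, a BH3-only gene, with 9.95 CPM against 5.17 CPM in Veh on 21 and 19 counts. The intervals of all 5 held 0. Other p38KO gates also had genes upward, 4 of 10 in T cells and 3 of 7 in DC (15.4% and 18% of all genes). There was 1 of 7 in neutrophils, 1 of 10 in macrophages and 1 of 7 in NK cells (15.6%, 15.5% and 14.2%). In p38i 3 of 10 were upward in T cells, 2 of 8 in neutrophils and 2 of 10 in monocytes (12.2%, 16.2% and 10.3%). Macrophages had 1 of 10, and NK cells and DC had 0 (7.09%, 11.6% and 17.8%). In macrophages Bmf had 1.42 CPM in Veh (5 counts), 5.60 CPM in p38i (19 counts) and 6.99 CPM in p38KO (64 counts), a log2 ratio of 2.30 for p38KO (1.00 to 3.97). Bcl2l15 had 17.0 CPM in Veh T cells and 40.9 CPM in p38KO (1.27).

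Of 13 caspase and apoptosome genes, 12 had enough counts in neutrophils for p38i and 3 were past the limit upward, against 16.2% of all genes. One of them was the executioner caspase Casp6, with 24.1 CPM in Veh, 56.1 CPM in p38i and 15.5 CPM in p38KO. For p38KO 1 of 11 was past it upward and 3 downward in neutrophils, against 15.6% and 7.54% of all genes. The 3 lower genes included Htra2, a mitochondrial protease, at -0.71 with an interval from -1.52 to 0.05. In macrophages none of 13 was past the limit in p38i, against 7.09% of all genes upward and 8.64% downward. In p38KO 0 were past it upward and 1 downward, against 15.5% and 5.33% of all genes.

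Among 15 inhibitors of apoptosis and death receptor genes, Tnfsf10, the gene of the death ligand TRAIL, had 62.4 CPM in Veh NK cells, 55.6 CPM in p38i and 133 CPM in p38KO, a log2 ratio of 1.09 (0.54 to 1.66). In p38KO NK cells 3 of 12 genes of that list were past the limit upward and 2 downward, against 14.2% and 16.5% of all genes. The p38KO NK gate held mast cell markers at 1101 CPM, against 1.60 CPM in Veh, and NK markers at 5167 CPM, against 8695 CPM. The part of these differences in the values of that list was not tested. Among 11 p53 targets, Sesn1, a stress-induced antioxidant gene, had 9.91 CPM in Veh T cells and 22.4 CPM in p38KO (1.17), and 3 of 9 were past the limit upward in p38KO T cells and none downward, against 15.4% and 6.88% of all genes. In neutrophils 1 p53 target of 8 was past it in p38i and 1 of 7 in p38KO, both upward, against 16.2% and 15.6%.

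The genes whose levels ran most like those of a member were ranked by Pearson's r of log2(CPM + 10) over the 18 sums of 6 gates and 3 libraries, among 2829 genes. These sums share libraries, so r is a description. Bcl2 ran with Ppp3cc (0.99), Gimap8 (0.99) and Gimap6 (0.99), and the A1 sum with Cysltr1 (0.93), Slc29a3 (0.92) and P2rx4 (0.92). Mcl1 ran with Tnfrsf23, Dazap2 and Fbxl5 (0.98 each). Bcl2l1 ran with Ets2 (0.96), Svil (0.95) and S100a9 (0.94), and Bcl2l11 with Calm2 (0.96), Gadd45g (0.94) and Phf21a (0.92).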

How the data were processed

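The deposited matrices give, for every cell barcode, whole-number UMI counts of each gene that were not normalized. Per the file headers the authors made them with Cell Ranger 6.0.0, and the submitters' processing notes name build mm10. The labels and the study's methods differ on the chemistry version. The study's cell filter was applied: 1500 or more counts, 300 or more genes, and mitochondrial counts of 20% or less. Neutrophils needed 2 or more counts of Csf3r and Cxcr2, and more than of Ly6c2 and Fn1. Monocytes needed the reverse, and macrophages 2 or more of C1qa. T, NK and DC gates needed 1 count of their gene and 0 of Csf3r and Cxcr2. Every gate required the gene of each of the macrophage, T, NK and DC gates to be at 0, its own left out. The macrophage gate set no limit on Csf3r, Cxcr2, Ly6c2 or Fn1. Cells of no gate (23.6% to 29.1%) were left out. No doublet caller was run.

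Counts were summed per gate and library and given as CPM. Shares and medians over all genes were taken between libraries in whole gates, not between or within subsets of a gate. A count of 0.5 stood in for 0 in log2 ratios. Cell Ranger by default does not count reads that map to several genes, which touches the A1 rows. Shares were taken after a random draw of 1500 counts per cell. The ratio and interval steps were tested on simulated data. The text names all 9 members, the A1 sum, and list genes from the 3 with the largest ratio past the limit and 50 or more counts in each gate and comparison, including p38KO against p38i. Other values of Bmf, Casp6 and Tnfsf10 were added after they were seen. Likeness was ranked among genes with 100 CPM or more in 1 sum. The members, lists and subsets were chosen with earlier results of these data known, and neutrophils below 2 interferon gene counts were added later. Alternatives were median-ratio scaling, no cell filter, gate minimums of 1 or 1 count higher, gates read after thinning, means of CPM per cell, subtraction of a neutrophil profile and a minimum of 100 counts. Python 3.11.15, numpy 2.4.6, scipy 1.17.1, pandas 2.3.3 and matplotlib 3.10.9 were used.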

Additional observations from a re-analysis of the deposited data

Results flagged for a closer look

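Bcl2a1a differed from Veh in opposite directions in different cell types of the p38KO library. Its log2 ratio was 1.32 in neutrophils and 0.61 in DC, and -0.60 in macrophages and -2.25 in T cells, each with an interval that left out 0. The difference between cell types was not tested, since there is 1 library per group. The T cell value rested on 32 and 5 counts and was -1.07 without the deepest 5% of cells. The DC value was 0.17 without the Ccr7 and Fscn1 cells, while the neutrophil and macrophage values kept their direction under every alternative run, with the macrophage value within the limit at -0.45 and -0.42 under 2 of them.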

How the results depend on the processing

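No paired analysis was possible because each group is 1 library. Members past the limit upward in p38i (2) numbered 5 with gate minimums 1 count higher, 4 with gates read after thinning and 0 at a minimum of 100 counts, and, among alternatives chosen after seeing the data, 5 without the deepest 5% of cells and 1 without the Ccr7 and Fscn1 DC. Members past it downward in p38i (6) numbered 11 with the mean of CPM per cell. In p38KO the upward count (4) was 2 without those DC, and the downward count (11) was 7 with the mean of CPM per cell and 7 at a minimum of 100 counts. The other alternatives left these counts within 1.5 times. The shares of all genes past the limit were not taken again under the alternatives. These moves are therefore not set apart from a shift shared by all genes.

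Of 233 alternative values of the 25 single ratios past the limit, 227 kept their direction, 195 of them past the limit, and 6 changed direction, all in the DC gate. With gate minimums 1 count higher Pmaip1 in p38i was 0.10 and Bcl2 in p38KO was 0.43. With gates read after thinning Pmaip1 was 0.49 in p38i and 0.043 in p38KO, and Bcl2l11 in p38i was -1.14. With the mean of CPM per cell Pmaip1 in p38KO was 0.15. The cause was not tested. The neutrophil A1 sum of p38KO ranged from 0.98 to 1.19 over its alternatives. Bcl2a1d in that gate moved from -0.84 to -0.09 without the deepest 5% of cells. Pmaip1 in NK cells rested on 1 to 3 counts per library and Bcl2l1 in DC on 3 to 15, so both were under the minimum of 20 for a ratio to Veh.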
